A study of Mus musculus with 16 samples.

Results

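Dense stretches of H3K4me1 in mouse dendritic cells were defined as runs of called summits on the autosomes in which each summit lay 6000 bp or less from the next and which held 8 or more summits. Such a run is called a chain here, and its summits are its members. Of the 78214 autosomal summits of unstimulated dendritic cells, 853 (1.09%, exact Clopper-Pearson 95% interval 1.02 to 1.17) were members, in 97 chains. The members were chosen by the positions of the dendritic cell summits, so the number, spacing and length of the chains describe the choice. The summits of 3T3 fibroblasts took no part in it and give the independent readout.

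The series mapped 3 histone marks and input DNA by ChIP-seq in dendritic cells and in 3T3, an established mouse fibroblast line, with and without stimulation, in 16 samples. Only the unstimulated H3K4me1 lists enter this account, 1 library for dendritic cells and 1 for 3T3, made with the same antibody, clone CMA302. The dendritic cells were grown from bone marrow progenitors that had been infected with a retrovirus expressing a hairpin to JmjD2d (a demethylase of histones), selected in histidinol and differentiated for 4 days in GM-CSF with SCF and 4 further days in GM-CSF alone. The protocol of the 3T3 cells names no hairpin, so cell type and hairpin cannot be told apart here.

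H3K4me1 is placed on the nucleosomes around enhancers and beside promoters, mainly by the MLL-type methyltransferases, and marks elements that are active as well as elements held ready for later use. Enhancers that serve genes of cell identity often lie close together, and long clusters of active elements are known as stretch enhancers or super-enhancers. In dendritic cells and macrophages, lineage transcription factors bind at many such elements and open them before any stimulus arrives. H3K4me1 alone does not tell active from poised elements, and acetylation was not analysed here. The genes in the chains are not named, since the gene positions at hand are of GRCm38 and the lists are of mm9. For the same reason neither cell type was checked against its marker genes.

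Both lists were of like size, with 79796 summits in dendritic cells and 81860 in 3T3. The autosomes held 78214 and 80558 of them. Each summit has a score, which the header leaves unnamed and which was read as signal height at that base, the value the caller normally writes. No scaling between the lists is recorded. The depth of the libraries is unknown, so where no summit is listed the mark may still be present below the calling threshold. With no replicate library, intervals cover counting error only, and they take neighbouring summits as independent.

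The chains were short runs of separate summits. A chain was 28.8 kb long on average (SD 6.23 over the 97 chains), from 18.9 to 44.2 kb, with a median of 27.1 kb. The number of members was 8 in 54 chains, 9 in 22 chains and 10 to 13 in 21 chains. All chains together covered 2796711 bp, or 0.116% of the autosomes between their first and last summits. Members lay a median of 3629 bp from the next member, with a middle range from 2663 to 4828 bp, whereas all autosomal dendritic cell summits lay a median of 8141 bp from the next. Wide gaps were common: 154 of the 756 gaps in chains were wider than 5000 bp, and 74 of the 97 chains contained at least 1 of them. How many chains would fall below 8 members without such a gap was not counted.

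The chains were the tail of a distribution with no break at 8 summits. There were 10288 chains of 2, 4016 of 3, 1636 of 4, 663 of 5, 295 of 6, 135 of 7 and 54 of 8. Of the chains that reached 2 summits, 39.9% (39.2 to 40.7) held a further one. Of those that reached 5, 44.3% (41.4 to 47.2) did, a higher share whose interval does not overlap that at 2. Of those that reached 7, 41.8% (35.4 to 48.4) did, and of those that reached 9, 48.8% (33.3 to 64.5). The first step stood lower, as 34.8% (34.3 to 35.2) of all runs, unchained summits included, went on to a second summit. Chains of 7, just outside the threshold, had a median length of 22.0 kb and 1.18 3T3 summits per 10 kb, against 24.8 kb and 1.15 per 10 kb in the chains of 8 just inside it. At 28 of the 194 chain ends the next dendritic cell summit stood beyond 6000 but within 7000 bp, a little too far to be joined.

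**Figure D1:**
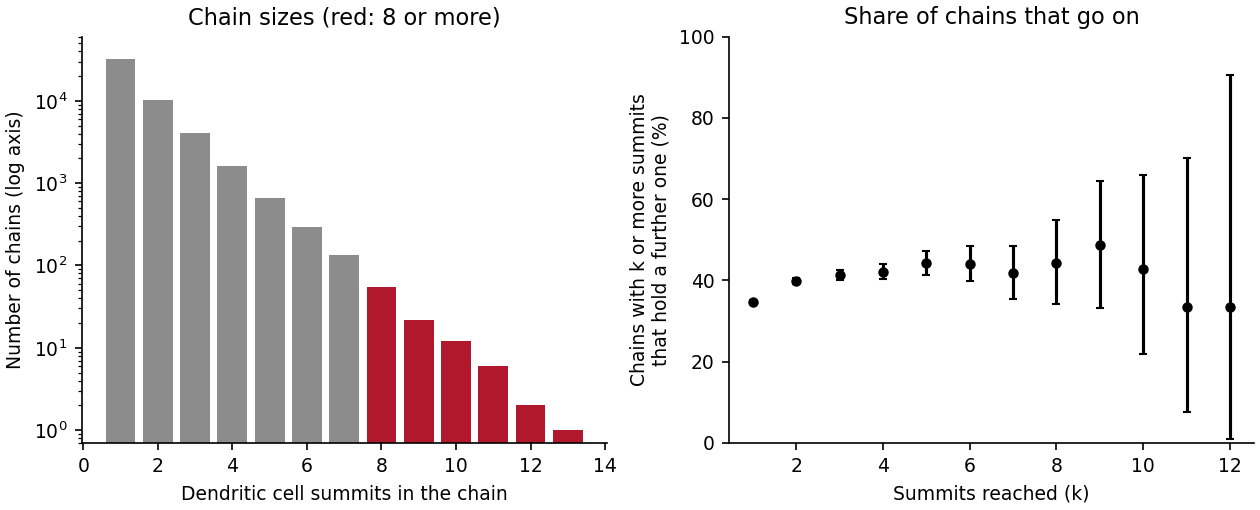
Number of autosomal dendritic cell chains by the summits they hold, on a log axis (left), and the share of chains with k or more summits that hold a further one (right; bars, exact 95% interval). The counts fall at each step from 32163 unchained summits to 1 chain of 13, and the share lies between 39.9 and 48.8% at 2 to 9 summits reached.

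Chains were found on 18 of the 19 autosomes, with none on chromosome 16. Chromosome 19 had the highest share of its dendritic cell summits in chains, at 2.45% (66 of 2689, in 7 chains). Chromosome 5 followed with 2.07% (99 of 4793) and the most chains, 12, and chromosome 3 with 1.89% (78 of 4136, in 9 chains). At the low end of the autosomes with chains, chromosome 1 had 0.566% (30 of 5296, in 3 chains). Of 79 neighbouring pairs of chains on the same chromosome, 8 were 1000 kb or less apart and 5 were 500 kb or less apart. No background was computed for these counts. Only 1 pair was 100 kb or less apart, that of chr5:34734613-34760983 and chr5:34839252-34867295 with 78.3 kb between them. A further pair on chromosome 10, chr10:128168930-128194448 and chr10:128327744-128361524, was 133 kb apart.

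The largest chain, with 13 members, was chr19:34637206-34681351 (44.1 kb). Its scores were low, from 19 to 66 with a median of 28. Chains of 12 members followed at chr12:99476700-99520904, the longest of all at 44.2 kb, with scores from 22 to 89 and a median of 42.5, and at chr1:162185183-162226173 (41.0 kb), with scores from 22 to 110 and a median of 46.5. The chains of 11 members named by the same ranking were chr15:76111661-76155579 (43.9 kb, median score 57), chr19:41316600-41357675 (41.1 kb, median score 28) and chr3:93315466-93356077 (40.6 kb, median score 39). These 6 chains were also the 6 longest, and the only ones over 40 kb.

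Members were not higher than other summits. Their median score was 35, with a middle range from 25 to 51, beside a median of 36 and a range from 26 to 55 in all autosomal dendritic cell summits. The median score of a chain lay above 36 in 44 chains and below it in 50. Within a chain the scores were uneven, and the highest member was a median of 3.64 times as high as the lowest (1.92 to 9.04 over the 97 chains). At chr17:28396413-28419900 the scores ran from 16 to 132, and at chr10:21854690-21878972 from 16 to 115. The first and last members of the chains had a median score of 38.5, against 33 for those between them.

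High summits were no more frequent in the chains than among all autosomal dendritic cell summits. A score of 100 or more was reached by 31 of the 853 members (3.63%, 2.48 to 5.12), in 19 of the 97 chains, beside 4.52% of all autosomal dendritic cell summits. These include every member of chr9:3015509-3036090 except one that scored 28. The share in the remaining chains is therefore lower than 3.63%, and it was not computed. By median score the leading chain was chr9:3015509-3036090, at 137.5, which is described separately below because it stood apart. It was followed by chr6:38784016-38816422, with a median of 59 and scores from 22 to 148, and chr5:34839252-34867295, also with a median of 59, where 4 of 8 members scored 62, 96, 100 and 97. Next came chr15:76111661-76155579 (57), chr17:28874392-28907694 (55) and chr11:116267998-116300850 (54.5).

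Fibroblast summits fell inside most of these stretches. A total of 307 3T3 summits lay between the first and last members of a chain, 0.381% of the autosomal 3T3 summits (0.340 to 0.426). The number per chain was 3.16 on average (SD 1.89, variance 3.58, n = 97 chains), with a median of 3 and a range from 0 to 8. Between 2 and 4 3T3 summits were found in 62 chains, 6 or more in 10 chains, 1 in 12 chains and none in 7. Dendritic cell summits outnumbered 3T3 summits in every chain but 1, which follows in part from the choice of the chains by their dendritic cell summits. Across the 97 chains, Spearman's rho of the 3T3 number was 0.25 with chain length and 0.18 with the number of members. These values describe chains that share the same 2 libraries.

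**Figure D2:**
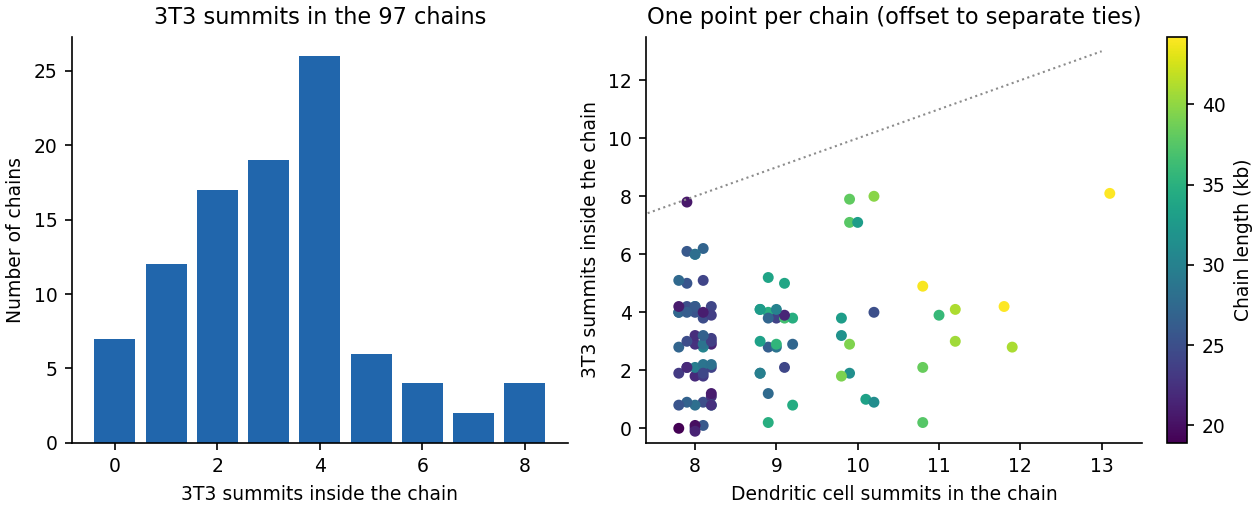
Number of chains by the 3T3 summits inside them (left), and 3T3 against dendritic cell summits for each chain, coloured by length in kb (right; dotted line, equal numbers; points offset to separate ties). The most chains, 26, hold 4 3T3 summits and 4 chains hold 8, and all chains but 1 lie below the line of equal numbers.

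Stretches without any fibroblast summit were the exception. The largest was chr7:107261264-107298750 (37.5 kb), where the 11 members scored 30, 30, 20, 20, 22, 62, 41, 30, 23, 35 and 55 in order of position. None of them had a 3T3 summit within 1000 bp. On the same chromosome, chr7:121431716-121466531 (34.8 kb) held 9 members with scores of 42, 92, 23, 68, 32, 30, 59, 39 and 35, of which only the last had a 3T3 summit near it, outside the chain. Its 2 highest summits, at 92 and 68, had no 3T3 summit within 1000 bp.

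The other chains with no 3T3 summit inside had 8 members each. They were chr4:11876955-11902862 (scores 17 to 55), chr3:84637231-84661897 (18 to 99), chr10:17389954-17411267 (21 to 88), chr6:145061748-145081584 (18 to 78) and the shortest chain of all, chr3:60351088-60369996 (18.9 kb, 18 to 36). The last falls outside the ranking that names the others and is named because it completes the 7. Its final member had a 3T3 summit that scored 44 just outside the chain, 116 bp away. With chains extended by 1000 bp at each end, 5.15% held no 3T3 summit, beside 7.22% as defined. The median scores of the chains with no 3T3 summit inside lay between 25 and 40.5, within the range of the other chains. At chr10:17389954-17411267 the members scored 88, 41, 32, 26, 40, 69, 21 and 54, so that the dendritic cell signal there was high at several summits with none called in 3T3 between them.

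At the other end, 4 chains held 8 3T3 summits. In the largest chain, chr19:34637206-34681351, these scored 65, 30, 35, 33, 33, 45, 43 and 147, beside dendritic cell scores of 19 to 66. Of its 13 members, 7 had a 3T3 summit within 1000 bp. Both cell types thus had a run of summits there, with the highest 3T3 summit 1334 bp from the nearest member.

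The chain chr15:98336304-98374346 had 10 members, of which 6 were shared, and 3T3 scores of 30, 25, 78, 20, 109, 34, 19 and 53. A member that scored 77 lay beside the 3T3 summit of 78, and a member that scored 42 beside that of 109. At chr18:39602194-39641920 the 10 members scored 17 to 53 and the 3T3 summits 26 to 52, but only 4 members were shared. The 3T3 summits there interleaved with the members. Chains with 7 3T3 summits were chr11:98196071-98233717 and chr11:116267998-116300850, each with 6 of 10 members shared.

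**Figure D3:**
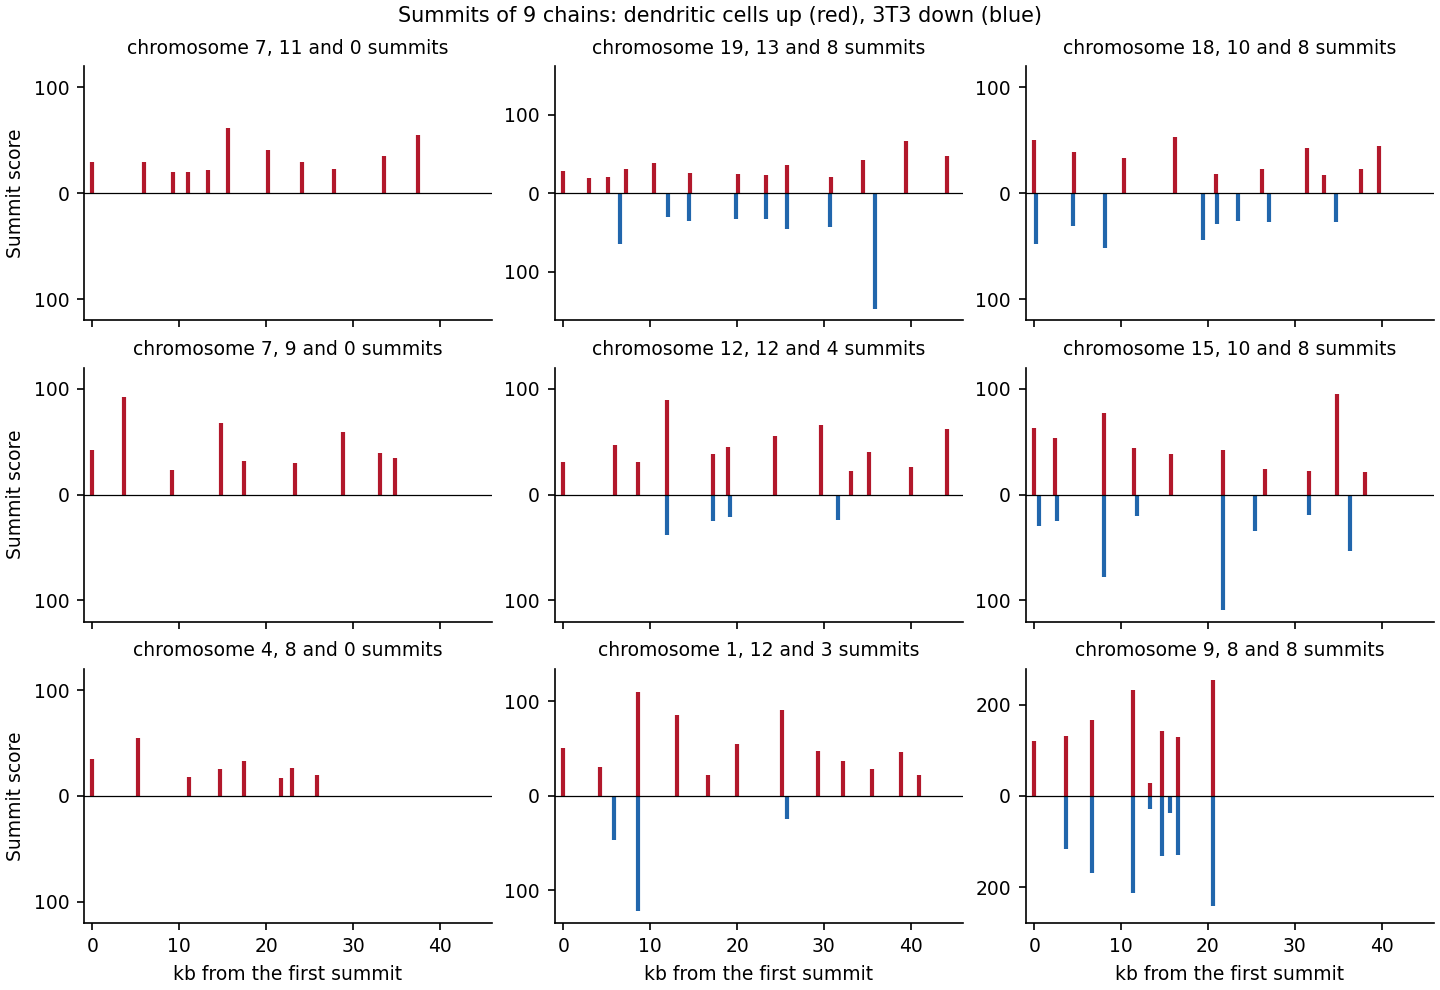
Summit scores of 9 chains by distance in kb from the first member, dendritic cells upward in red and 3T3 downward in blue. The left column shows 3 chains with no 3T3 summit, the middle column the 3 with most members (13, 12 and 12) and the right column 3 of the 4 with 8 3T3 summits. Scores are not scaled between the lists, and the bottom right panel has a larger score axis.

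The chain chr9:3015509-3036090 differed from all others in how closely the lists matched. Its 8 members scored 121, 132, 167, 231, 28, 143, 128 and 253. The 3T3 summits beside them scored 123, 117, 169, 212, 28, 131, 130 and 241. Every one of these 8 pairs was 1 bp or less apart, whereas none of the 263 other member pairs was, and 9 of those were 10 bp or less apart. Its median score of 137.5 was far above the next highest of 59. Input DNA was not analysed here, so whether these positions are also high without the antibody was not tested. Several results that include this chain are also given without it, but not all. Without it the median score of members was 34 rather than 35, and that of first and last members 38 rather than 38.5.

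Members were shared with fibroblasts about as often as any other dendritic cell summit. A summit is called shared here when a 3T3 summit lay within 1000 bp. Among all autosomal dendritic cell summits 30.8% were shared, and among members 272 of 853 (31.9%, 28.8 to 35.1). The difference between members and non-members was 1.06 percentage points (Newcombe 95% interval -2.00 to 4.27), and 0.411 points (-2.64 to 3.63) without the chain on chromosome 9. With 1 library per cell type it was not tested against replicate error. The share was 31.7% (27.3 to 36.3) in chains of 8, 31.8% (25.4 to 38.8) in chains of 9 and 32.3% (26.2 to 38.9) in chains of 10 or more. Smaller chains of 2 to 7 summits gave 32.2% (31.7 to 32.6), and unchained summits 29.0% (28.5 to 29.5).

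Single chains, with 8 to 13 members each, varied around that average. The share of a chain's members that were shared was 31.9% on average (SD 18.8, n = 97 chains), from 0 to 100%. No member was shared in 8 chains, and 50% or more of the members were shared in 21. The same counts were not made for smaller chains. How much of this spread comes from the few members per chain was not tested. All members were shared only in the chain on chromosome 9 described above. The 60 to 75% range held, among others, chr4:104921303-104948259, where 6 of 8 members were shared, and chr17:35161440-35189513, where 5 of 8 were.

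Sharing rose with the score in members as in other summits. Among members that scored under 26, 20.0% (15.0 to 25.8) were shared, beside 22.7% (22.1 to 23.3) of non-members. At scores of 26 to 35 the values were 29.3% (23.2 to 36.0) and 29.1% (28.5 to 29.8), and at 36 to 54 they were 35.8% (29.6 to 42.5) and 34.9% (34.3 to 35.6). At 55 or more, 44.4% of members (84 of 189, 37.2 to 51.8) and 36.1% of non-members (35.4 to 36.8) were shared. Without the chain on chromosome 9 the member value was 42.3% (35.03 to 49.8), an interval that includes the non-member value. Summits of that score in chains of 4 to 7 lay between, at 39.1% (37.3 to 40.9). Members that were shared had a median score of 41, and those that were not, 31.

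The autosomes did not all show the same order. Members were shared more often than non-members on 11 of the 18 autosomes with chains, and less often on 7. On chromosome 11, 26 of 47 members were shared (55.3%, 40.1 to 69.8), beside 36.1% of the other summits. On chromosome 8 it was 4 of 24 (16.7%, 4.74 to 37.4) beside 38.1%, and on chromosome 7 it was 8 of 45 (17.8%, 8.002 to 32.1) beside 28.3%. Members of 1 chain lie side by side, so these few chains per chromosome carry less information than the numbers of summits imply.

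**Figure D4:**
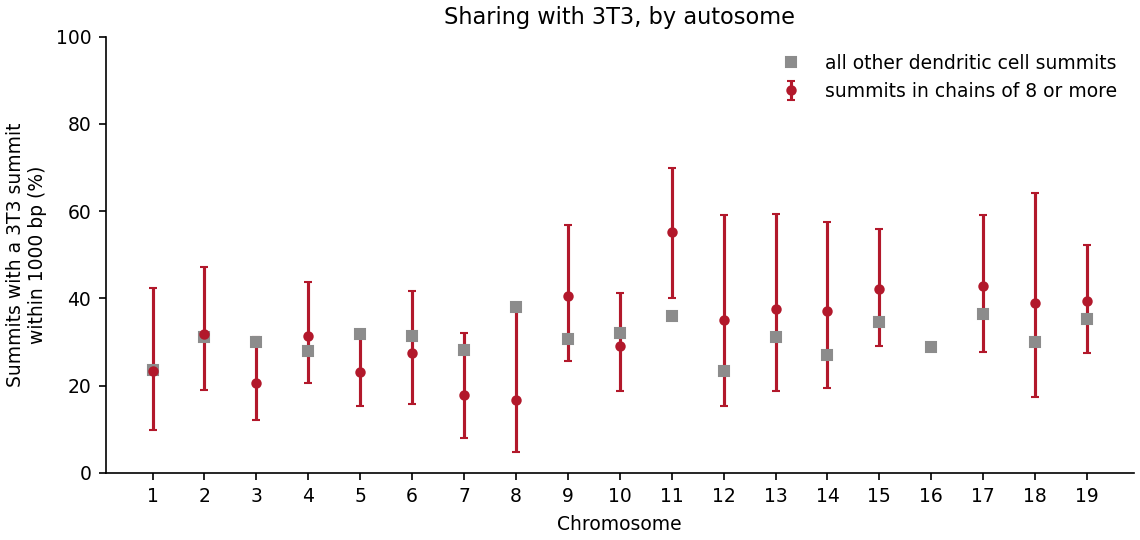
Percent of members (red circles, exact 95% interval) and of all other dendritic cell summits (grey squares) with a 3T3 summit within 1000 bp, by autosome. The members of chromosome 11 lie highest at 55.3% and those of chromosome 8 lowest at 16.7%, and chromosome 16 has no chain.

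Measured by length rather than by summit, the chains lay in parts of the genome that were rich in fibroblast summits. There were 1.098 3T3 summits per 10 kb of chain (exact Poisson 95% interval 0.978 to 1.23) and 1.08 (0.958 to 1.21) without the chain on chromosome 9, against 0.335 per 10 kb of the autosomes as a whole. Smaller chains had similar rates: it was 1.101 (1.08 to 1.13) in chains of 2 or 3 summits and 1.11 (1.08 to 1.14) in chains of 4 to 7. Of the 3T3 summits inside chains, 232 of 307 (75.6%, 70.4 to 80.3) lay within 1000 bp of a dendritic cell summit, beside 29.9% (29.6 to 30.2) of all autosomal 3T3 summits. The closeness of members to each other raises this share by itself.

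The 3T3 rate was lower outside the chains than inside, without an even decline. Inside, it was 1.07 per 10 kb (0.865 to 1.32) more than 10 kb from an edge, 1.16 (0.952 to 1.39) at 5 to 10 kb and 1.06 (0.867 to 1.29) within 5 kb. Outside, it was 0.928 (0.746 to 1.14) in the first 5 kb, where the rule leaves no dendritic cell summit at all, and 0.773 (0.608 to 0.969) from 5 to 10 kb. From 10 to 20 kb it was 0.729 (0.613 to 0.859), slightly below the value from 20 to 50 kb, and the intervals of these zones overlap. From 50 to 100 kb away it was still 0.650 (0.5996 to 0.703). Around chains of 4 to 7 the outer value was 0.655 (0.645 to 0.664), and from 20 to 50 kb it was 0.685 (0.672 to 0.698) beside 0.779 (0.709 to 0.854) around the chains of 8 or more.

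**Figure D5:**
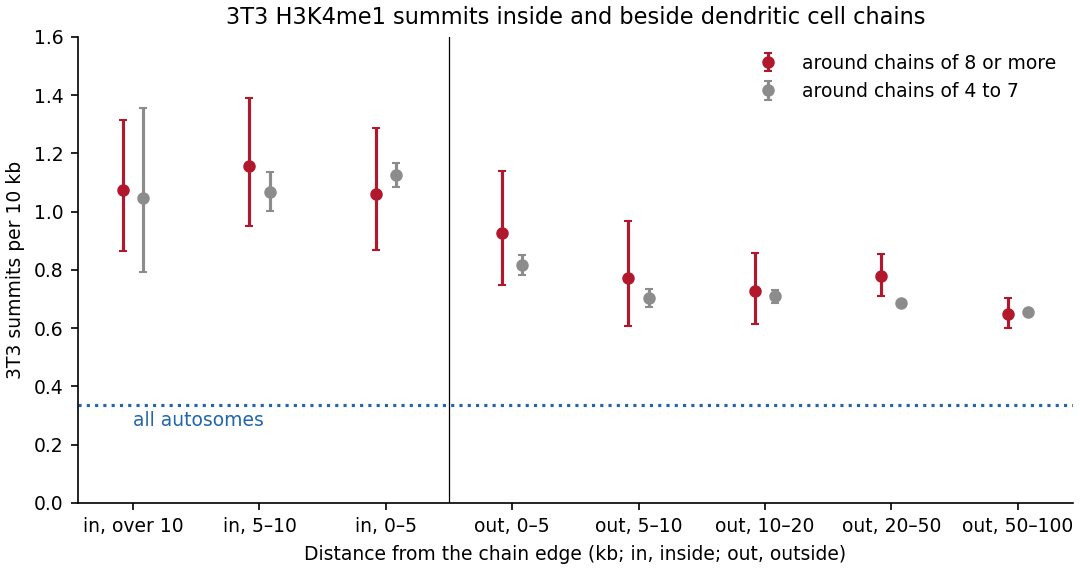
3T3 summits per 10 kb by distance in kb from the chain edge, around chains of 8 or more (red) and of 4 to 7 (grey); bars, exact Poisson 95% interval; dotted line, all autosomes at 0.335. The red points lie between 1.06 and 1.16 inside and at 0.650 at 50 to 100 kb, with 0.729 at 10 to 20 kb and 0.779 at 20 to 50 kb. The grey points take a similar course.

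Windows of equal length held more 3T3 summits around larger chains, but fewer for each dendritic cell summit. Windows of 30 kb around the middle of the 97 chains held 3.31 3T3 summits on average (SD 1.87), and 3.25 (SD 1.79) without the chain on chromosome 9. Around chains of 4 to 7 summits the mean was 2.74 (SD 1.71, n = 2729), around chains of 2 or 3 it was 2.26 (SD 1.65, n = 14304) and around unchained summits 1.91 (SD 1.64, n = 32163). Over all of these windows 22.2% held no 3T3 summit. Around the chains it was 5 of 97 (5.15%, 1.69 to 11.6), against 11.5% (10.3 to 12.8) around chains of 4 to 7 and 25.3% (24.8 to 25.7) around unchained summits. The same windows held 7.80, 5.16, 3.53 and 2.44 dendritic cell summits on average, from the chains of 8 or more down to unchained summits, a gradient that the rule sets. The 3T3 summits for each dendritic cell summit were therefore 0.424, 0.531, 0.641 and 0.785 in that order. A chain of 8 or more nearly fills its window, while the window of a small chain is mostly flank. Windows around neighbouring summits overlap, and no replicate error stands behind these differences.

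Where a member had a counterpart in 3T3, large score differences were about as frequent as at other such sites. Mutually nearest summits within 1000 bp formed 271 pairs with a member. Relative to the median of all 24061 autosomal pairs, the log2 ratio of the 3T3 to the dendritic cell score had a median of -0.01 in member pairs and a middle range from -0.54 to 0.49, beside -0.54 to 0.55 in all pairs. In 29 member pairs the dendritic cell score exceeded the other 2-fold or more (10.7%, 7.28 to 15.01), beside 11.7% of all pairs. In 27 the 3T3 score did (9.96%, 6.67 to 14.2), beside 12.0% of all pairs. Pairs of the first kind occurred in 22 chains and those of the second in 21, with 2 chains that had both.

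The widest score differences are picked here for their size, and in some of their chains other pairs were close to equal. At chr17:28396413-28419900 the members at both ends scored 124 and 132, and the 3T3 summits beside them 21 and 31 (5.43- and 3.92-fold higher in dendritic cells relative to the median pair), while its other 2 pairs scored 16 beside 15 and 21 beside 20. The highest 3T3 summit inside that chain scored 41 and formed no pair. At chr6:38784016-38816422 members that scored 148, 61 and 57 lay beside 3T3 summits of 28, 21 and 22, and the remaining pair scored 25 in both lists. This chain also held 3T3 summits of 49, 50 and 97 that formed no pair, the first of them 1011 bp from a member that scored 84. At chr14:70552138-70579217 members that scored 21, 24 and 47 lay beside 3T3 summits of 137, 70 and 89 (7.09-fold higher in 3T3 at the first), and the remaining member of 63 beside one of 51. The chain chr10:8530594-8562009 had 2 pairs and neither was close to equal. Its members of 17 and 18 lay beside 3T3 summits of 112 and 29 (7.16- and 1.75-fold higher in 3T3).

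Few of the stretches coincided with a dense stretch of the fibroblasts, though the shares lay above those of smaller chains and of all summits. The same rule applied to the 3T3 list gave 72 chains with 651 members and a median length of 29.4 kb, which covered 0.0903% of the autosomal span. Of these stretches, 3 of the 97 dendritic cell chains (3.09%, 0.642 to 8.77) touched a 3T3 chain, which is 3 of the 72 3T3 chains (4.17%). Among dendritic cell chains of 4 to 7 summits 17 of 2729 did (0.623%, 0.363 to 0.996), and without the chain on chromosome 9 the value for the longer chains was 2 of 96 (2.08%, 0.253 to 7.32), an interval that includes 0.623%. By summit, 22 of the 853 members (2.58%, 1.62 to 3.88) lay inside a 3T3 chain, and 15 of 845 (1.78%, 0.997 to 2.91) without the chain on chromosome 9, beside 0.311% of all autosomal dendritic cell summits. Those 15 members lie in 2 chains, so their interval is too narrow. A longer chain also has more length with which to touch a 3T3 chain, and no adjustment was made for length. The touching chains were the chains chr9:3015509-3036090 and chr19:34637206-34681351 described above and chr3:79031903-79057518. The last had 8 members and overlapped 23.9 kb of a longer 3T3 chain, chr3:79033658-79076829. Of the 10 summits of that 3T3 chain 5 lay inside the dendritic cell chain, and 2 of the 8 members were shared. Of the 307 3T3 summits inside dendritic cell chains, 21 (6.84%, 4.28 to 10.3) were members of a 3T3 chain, beside 0.808% of all autosomal 3T3 summits. Without the chain on chromosome 9 these were 13 of 299 (4.35%). In the reverse direction the 72 3T3 chains held 243 dendritic cell summits, 3.38 per chain, and 14 of the 72 (19.4%) held none. No background share was computed for the 3T3 chains, so this direction is not set against the other.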

How the data were processed

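H3K4me1 ChIP-seq lists of unstimulated dendritic cells and unstimulated 3T3 cells were used, 1 library each, grouped by title; the other samples were not analysed here. The cell type field of the 3T3 sample names dendritic cells, but its title, description, growth protocol and list header name 3T3. Per the labels' protocols, fixed chromatin was sheared to about 300 bp, amplified for 18 cycles and read for 36 bp. The submitters' processing notes name Bowtie, MACS 1.4 and the build mm9. Summits were called at p 1e-04 with a 150 bp shift, without a model or local lambda, per the file headers, and the use of input there is not stated. The authors deposited 1 bp summits with a score, read here as signal height, always a whole number of 13 or more.

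Members and lists were chosen with earlier results of these data known. A 3T3 summit was counted inside a chain from its first to its last member. Flanks left out other chains and ended at the outermost summit of a chromosome. The named chains are the 6 leading ones by members, length, 3T3 summits, median score, and members among those without 3T3 summits; others were chosen after their values were seen, as were the 30 kb windows. No p-value was computed, since no group had a replicate. Alternatives varied the gap, the chain size, the chain ends, the score, the shared distance, merging and the chromosomes. The counting was checked on simulated lists. Python 3.11.15, numpy 2.4.6, pandas 2.3.3, scipy 1.17.1, statsmodels 0.14.6 and matplotlib 3.10.9 were used. Positions are 1-based in mm9. Gene names and sequences were not used here.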

Additional observations from a re-analysis of the deposited data

How the results depend on the processing

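The number of chains followed the rule closely. A gap of 4000 bp left 3 chains with 24 members, and 8000 bp gave 513 with 4817. Requiring 6 summits gave 527 with 3568, requiring 10 gave 21 with 223, and keeping only scores of 20 or more in both lists gave 61 with 537. The shared percentage of members was 24.6% at 500 bp and 42.8% at 2000 bp. The few chains at a gap of 4000 bp gave 1.26 3T3 summits per 10 kb, 33.3% of chains with no 3T3 summit, and 0% of pairs at least 2-fold higher in either direction. The other 58 of 74 values stayed within their counting interval or, for numbers, within 1.5 times. The difference in sharing lay between -1.68 and 3.55 points over its 11 alternatives, and its own interval left out 0 only at a gap of 8000 bp (1.84, 0.491 to 3.22). The omission of the chromosome 9 chain was added after seeing the data. No paired analysis was possible because each cell type had 1 library, and for the same reason no replicate was left out. Library depth is unknown, and what more reads would have added to either list was not tested.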

Other observations

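On the X chromosome, which the definition leaves out, the same rule gave 5 chains of dendritic cell summits. At chrX:11677050-11707028 there were 8 members with a median score of 40 and 5 3T3 summits, and at chrX:45790442-45820689 there were 10 members with a median score of 28 and 7 3T3 summits. The chains chrX:19922794-19956601 (9 members) and chrX:83109259-83131878 (8 members), both with a median score of 26, held no 3T3 summit, and chrX:126287504-126316994 (9 members, median score 24) held 1.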
